A study of Drosophila melanogaster with 4 samples.

Results

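Regions of RNA polymerase II enrichment from 5000 to below 10000 bp wide on the autosomes of Drosophila melanogaster are described here. They were chosen by their measured width in the deposited list for the replicate set, keeping regions called enriched on the arms 2L, 2R, 3L, 3R and 4 whose first and last base span at least 5000 and fewer than 10000 bp. This gave 864 intermediate regions of 5393 enriched regions on these arms and of 6761 in the whole list. The same arms held 4248 narrower regions and 281 broader ones. The chromatin came from heads of mixed adults of the wild-type strain Oregon-R, with no other genotype and no treatment in the series, and was precipitated with an RNA polymerase II antibody from Abcam. The 4 libraries were 2 ChIP replicates and 2 inputs, 1 input for each ChIP library. The authors deposited 1 region list per ChIP replicate and 1 for the set, all on FlyBase release 5. Whether the replicates came from separate collections of flies is not given, so the spread between them may be technical, and no test across samples can be made with 2 of them.

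RNA polymerase II transcribes protein-coding genes and many non-coding RNA genes. In Drosophila it often pauses just downstream of a start site, which gives a short peak in ChIP-seq, and on actively transcribed genes it is also spread over the gene body and past the polyadenylation site. Neighbouring active genes can give adjoining signals that a region caller joins into 1 region or separates into several. A whole head holds neurons, glia, photoreceptors, fat body, muscle and cuticle cells, so in this bulk chromatin occupancy in few nuclei and low occupancy in many cannot be told apart. No annotation of release 5 was used here, so regions are named by position, no gene is assigned to them, and the labelled tissue was not checked against marker genes. The read depth of the libraries is unknown, because the lists give no counts.

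The intermediate regions made up 16.0% of the autosomal regions and 27.9% of the sequence these cover, 5.87 of 21.0 Mb. Their median width was 6472 bp, with quartiles of 5671 and 7761 bp. The narrower regions had a median width of 2318 bp and held 51.5% of the covered sequence, and the broader ones had a median of 13573 bp and held 20.6%. The width classes were also formed within each replicate list, without use of the set list. There the 5 to 10 kb class held 703 regions (replicate 1) and 676 (replicate 2), on average 13.8% ± 0.477 of the autosomal regions and 25.8% ± 0.430 of their sequence (SD, n = 2). The share was therefore lower in the single lists than in the set list, by more than the spread between replicates. The broader class was smaller there too, at 3.50% ± 0.237 of the regions against 5.21% in the set list.

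Width alone chose the regions, and those next to its bounds are given as examples. The 3 regions just above the lower bound were 5001 bp wide at 2L 18855112 to 18860112 (score 0.57), 5004 bp at 3R 5547377 to 5552380 (1.09) and 5005 bp at 2R 19610673 to 19615677 (0.35). The 3 just below it were 4997 bp at 2R 10849328 to 10854324 (score 2.23), 4994 bp at 3R 5190198 to 5195191 (0.94) and 4993 bp at 2R 3552375 to 3557367 (0.76). At the upper bound, regions of 9994 bp at 3R 25821903 to 25831896 (0.94), 9979 bp at 4 905454 to 915432 (0.73) and 9955 bp at 2R 20761269 to 20771223 (2.15) were included. Those of 10007 bp at 3L 17633627 to 17643633 (1.42), 10014 bp at 3R 14000195 to 14010208 (1.23) and 10017 bp at 2R 11989128 to 11999144 (1.38) were not.

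Intermediate regions had middling to high scores, and weak ones were nearly absent. The scale and offset of the deposited score are not stated. It is taken as a log2 value from its pattern of values and is read here only within a list. In the set list the median score was 1.27 (95% interval of the median 1.22 to 1.32), with quartiles of 0.96 and 1.69 and a range from 0.34 to 3.42. Narrower regions had a median of 0.72 with quartiles of 0.37 and 1.47, and broader ones a median of 1.43 with quartiles of 1.17 and 1.68. The intermediate class was thus higher at the middle than the narrower one and less spread, with an SD over regions of 0.52 against 0.76. All autosomal scores of the set list were divided into 4 quartile classes, from class 1 (lowest) to class 4 (highest), each of which by construction holds 25% of all regions. Of the intermediate regions 6 fell into class 1, 192 (22.2%) into class 2, 392 (45.4%) into class 3 and 274 (31.7%, beside 25%) into class 4. Of the narrower regions, 31.6% were in class 1 and 23.0% in class 4. Scores above 3 were rare in each class, with 4 intermediate regions of 38 in all.

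Score differed most between regions below and above 2 kb and changed less with width beyond. Regions of 1 to 2 kb had a median of 0.31, those of 2 to 3 kb one of 1.02, and those of 4 to 5 kb one of 1.22. The 5 to 6 kb regions, at 1.19, did not stand above these, and the medians were then 1.23 at 6 to 7 kb, 1.28 at 7 to 8 kb, 1.46 at 8 to 9 kb and 1.39 at 9 to 10 kb. Across the 864 intermediate regions, Spearman's rho between width and score was 0.12, against 0.62 across the 4248 narrower ones. These are values across regions of 1 list, which share libraries, and they describe that list only. The low median of the narrower class is in part that of its 1131 regions below 2 kb. The same order of classes was seen in each replicate list by its own widths. For replicates 1 and 2 respectively, the median score was 1.33 and 1.52 in the 5 to 10 kb class, 0.92 and 1.04 below 5 kb, and 1.51 and 1.65 at 10 kb or more.

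**Figure D1:**
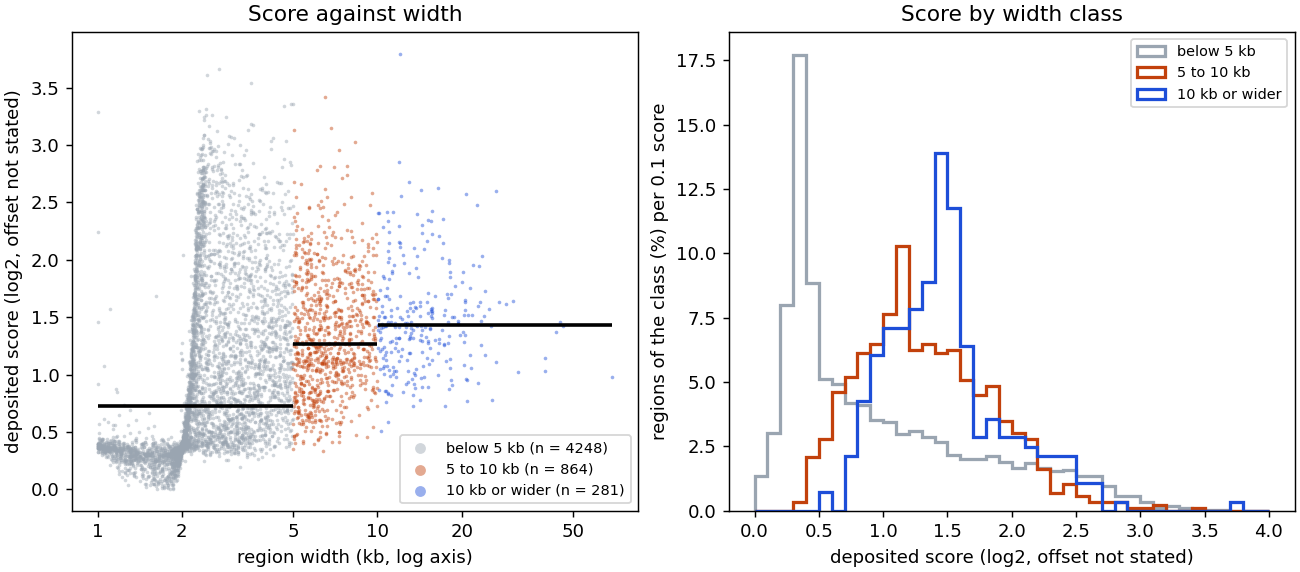
Left, deposited score (taken as log2, scale and offset not stated) of each enriched autosomal region of the set list against width in kb (log axis). Black lines mark the class medians. Right, the share of each width class per 0.1 of score. The 864 regions of 5 to 10 kb lie between 0.34 and 3.42 with a median of 1.27, and the low scores sit almost wholly among narrow regions.

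The highest-scoring intermediate regions were each a single region in both replicates. The first, 6503 bp at 2R 14422262 to 14428764, had a set score of 3.42 and ranked 5 in the whole list. Its region scored 3.65 in replicate 1 (rank 3) and 3.08 in replicate 2 (rank 109). The replicates differed most at its start, which lay at 14421936 in replicate 1 and at 14423200 in replicate 2, 1264 bp apart, whereas the ends were 48 bp apart. The second was 6808 bp at 3L 11244194 to 11251001 (score 3.15, ranks 20 and 58). There the starts were 45 bp and the ends 61 bp apart. The third, 5046 bp at 2L 14614431 to 14619476 (score 3.13, ranks 13 and 119), was also among the 3 intermediate regions farthest from any other, with its nearest neighbour 68606 bp away.

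The next 7 followed the same pattern, with 1 further exception at the start edge. The region at 2R 5436464 to 5444757 (8294 bp, score 3.02) ranked 56 and 40 in the replicates, with edges 26 and 53 bp apart. The region at 3R 2910489 to 2917750 (7262 bp, 2.95) ranked 55 and 107, with edges 20 and 58 bp apart. The regions at 3L 748271 to 756059 (7789 bp, 2.82), 2L 12043950 to 12050972 (7023 bp, 2.81) and 2L 9612317 to 9618403 (6087 bp, 2.78) ranked 87 and 250, 107 and 219, and 138 and 168. No edge of these 3 differed by more than 177 bp. At 3R 17197954 to 17204204 (6251 bp, 2.81, ranks 300 and 143) replicate 1 began 1606 bp before replicate 2, while the ends lay 54 bp apart. At 2R 16194504 to 16202262 (7759 bp, 2.74, ranks 86 and 480) the starts were 351 bp and the ends 69 bp apart. Ranks within a list have no replicate check with 1 library on each side.

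Nearly every intermediate region was also found in both replicate lists, as most wide regions were. By an overlap of at least 1 bp, 859 of 864 (99.4%, 95% exact interval 98.7 to 99.8) met a region of each replicate, beside 79.8% of all autosomal set regions. The share was 74.5% for narrower regions and 100% for broader ones. It reached 98.6% already at 4 to 5 kb, and it was 19.6% at 1 to 2 kb, so the background figure is lowered most by the narrowest regions. With the upper 50% of each replicate list by score alone, 64.6% of intermediate regions met a region of both. This filter can only lower the share, and it was not computed for the other classes or for all regions. The set list was made from the same libraries, so this overlap is a description of the 3 lists and not a finding in separate samples. Replicate 1 covered 89.6% of the intermediate sequence and replicate 2 covered 88.4%. The best-scoring replicate region within each intermediate region ranked at a median of 37.3% of the list in replicate 1 and 37.6% in replicate 2, counted from the top. Over all autosomal set regions in both replicates it was 44.5% and 44.6%. Over the 859 regions these best scores had a Spearman's rho of 0.90 between replicates, against 0.95 over 3165 narrower and 0.82 over 281 broader regions. The SD of the set scores fell in the same order, from 0.76 (narrower) to 0.52 (intermediate) and 0.46 (broader). A smaller spread can lower rho by itself, so these values do not rank the classes by agreement.

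The 5 intermediate regions that lacked a partner in 1 replicate had low scores. Those at 3L 1891899 to 1897781 (score 0.72), 3R 9892288 to 9899582 (0.50), 3R 8112271 to 8119551 (0.41) and 2R 19610673 to 19615677 (0.35) were met by 1 region of replicate 1 and by none of replicate 2. The region at 2L 2039931 to 2045335 (0.42) was met by 2 regions of replicate 2 and by none of replicate 1. None of the 864 was absent from both replicates. In the first of the 5, a single region of replicate 1 covered 100% of the 5883 bp.

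The class was formed in 1 replicate and read in the other, which does not use the set list. Of 703 regions of 5 to 10 kb in replicate 1, 70.3% had as their largest overlap in replicate 2 a region that was again 5 to 10 kb wide, 23.2% a narrower one and 6.26% a broader one. Of 676 such regions in replicate 2, the shares in replicate 1 were 73.1%, 16.9% and 10.1%. The mean of both directions was 71.7%, beside 85.4% for narrower and 73.2% for broader regions. Narrower regions kept their class more often in each direction (86.3% and 84.5%). Broader regions did so slightly less often in the first direction (69.2%) and more often in the second (77.2%). Both directions compare the same 2 lists, with 494 intermediate regions kept in each, so they give no spread between replicates. Only the intermediate class can be left at both bounds. The best partner had a median width of 6165 bp when read in replicate 2, and of 6409.5 bp when read in replicate 1. In replicate 1, 2 of the 703 had no partner at all, and in replicate 2, 0 of the 676.

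A typical edge of an intermediate region differed by somewhat over 100 bp between replicates, and in 337 of 859 regions 1 or both edges differed by more than 500 bp. For each of the 859 regions found in both, the outermost start and the outermost end of the overlapping replicate regions were compared. The median absolute difference was 110 bp at the start (95% interval of the median 91 to 123) and 125 bp at the end (109 to 142). For narrower regions it was 56 and 57 bp, and for broader ones 106 and 103 bp. The intermediate differences were thus close to those of regions of 10 kb or more. Relative to width, the medians were 1.62% at the start and 1.81% at the end, between those of narrower regions (2.18% and 2.22%) and of broader ones (0.771% and 0.707%). Both edges lay within 100 bp for 164 of 859 (19.1%), beside 41.3% of all autosomal set regions in both replicates. Within 500 bp the count was 522 of 859 (60.8%, beside 78.7%). Narrower regions reached 48.9% and 84.7%, and broader ones 23.8% and 66.9%.

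The larger edge differences did not begin at 5 kb. At the start and the end they were 69.5 and 81 bp at 1 to 2 kb, 46 and 47 bp at 2 to 3 kb, 92 and 88 bp at 3 to 4 kb, and 105 and 112.5 bp at 4 to 5 kb. From there they stayed between 91 and 129 bp at the start and between 108 and 140 bp at the end in each 1 kb bin up to 10 kb. Among intermediate and narrower regions, edges were placed more closely in those with high scores. In score class 4 the medians were 73 bp at the start and 88 bp at the end over 274 intermediate regions, and in score class 2 they were 249 and 228 bp over 189. Narrower regions of the same score classes had 48 and 47 bp, and 72 and 76.5 bp. Within each of these score classes the intermediate class had larger differences than the narrower one. Broader regions showed no steady fall at the start, with 168.5 bp in class 2, 90.5 bp in class 3 and 127 bp in class 4. Their end medians were 323, 97 and 81 bp. Regions that were single in both replicates had medians of 110 and 118 bp, and those split in at least 1 replicate 111 and 134 bp, so at the median the 2 kinds differed little.

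Where an intermediate region was placed differently, it was mostly at 1 end. An edge was more than 500 bp apart in 337 regions, at the start alone in 152, at the end alone in 148 and at both ends in 37. Across the 859 regions the start difference and the end difference had a Spearman's rho of -0.08, against 0.18 across the narrower ones. An edge more than 2000 bp apart was seen in 76 regions (8.85%, beside 3.37% of all autosomal set regions in both replicates), at both ends in 1. The share was 1.58% for narrower and 6.76% for broader regions. The start exceeded this distance in 48 and the end in 29. The files give no strand, so start and end are the lower and the higher coordinate and not the ends of a gene.

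**Figure D2:**
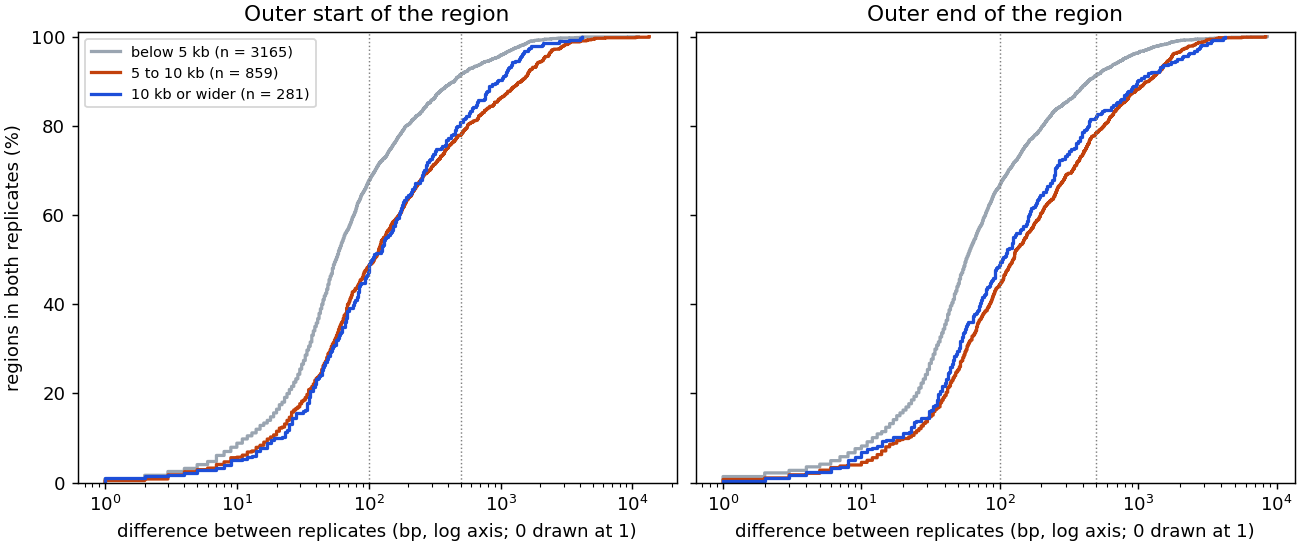
Cumulative share of autosomal set regions found in both replicates (vertical axis, %) against the absolute difference between replicates in bp (log axis), for the outer start on the left and the outer end on the right. Dotted lines mark 100 and 500 bp. The curves of 5 to 10 kb regions (medians 110 and 125 bp) run close to those of broader regions and below those of narrower ones (56 and 57 bp).

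The most different and the most alike regions show the range of these values. At 2R 5741379 to 5749500, replicate 1 ran from 5733080 to 5749406 and replicate 2 from 5746495 to 5749458. The starts were 13415 bp apart and the ends 52 bp. At 3L 208887 to 214785, replicate 2 began 10605 bp before replicate 1, and the ends differed by 499 bp. At 3R 8105845 to 8111879 the starts were 68 bp apart, and replicate 1 ran on for a further 8358 bp. In all 3 cases 1 replicate reached past the set region. In the first, replicate 1 had a gap from 5741557 to 5741694. Its piece from 5733080 lay mostly in the set region at 2R 5733073 to 5741253, 125 bp away. In the third, replicate 1 also overlapped the set region at 3R 8112271 to 8119551, 391 bp away, which met no region of replicate 2. In the second, 1 piece of replicate 2 ran from 198487 up to its gap from 209534 to 209800. It so also overlapped the set region that ended 817 bp before the start. The large differences in all 3 thus include sequence of a neighbouring set region. Among regions with a score at or above the class median, the closest was 5462 bp at 2R 7106096 to 7111557 (score 2.16), with starts 4 bp and ends 1 bp apart. It was followed by 2R 14270408 to 14279215 (2.17), with 3 and 8 bp, and by 3L 4413306 to 4421954 (1.55), with 7 and 7 bp.

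The set regions were mostly slightly longer than the replicate regions they contain. All edges of replicate 1 lay inside the set region in 688 of 859 cases (80.1%), and those of replicate 2 in 497 (57.9%). The start of replicate 1 lay a median of 62 bp inside the set start and that of replicate 2 a median of 74 bp inside. The ends lay 86 and 72 bp inside. A replicate region reached more than 500 bp past the set region in 16 cases in replicate 1 (1.86%) and 15 in replicate 2 (1.75%). The span from the outermost start to the outermost end had a median of 6051 bp in replicate 1 and 5962 bp in replicate 2, and was longer in replicate 1 for 398 regions and longer in replicate 2 for 460.

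A sizeable minority of the intermediate regions, 21.4% on average, were divided into several regions in a replicate. In replicate 1, 176 of 864 (20.4%, beside 6.14% of all autosomal set regions) overlapped more than 1 region, and in replicate 2, 193 (22.3%, beside 7.03%). Over both replicates the share was 21.4% ± 1.39 (SD, n = 2), against 0.824% ± 0.133 for narrower and 48.2% ± 5.79 for broader regions. The 3 classes were farther apart than the spread between replicates. No region of a replicate list is narrower than 1301 bp, so a narrow set region has little room for several pieces. The mean split share was 0.0442% at 1 to 2 kb and 0.229% at 2 to 3 kb. The contrast between classes and the background shares are thus partly fixed by width. In both replicates 88 were split (10.2%, beside 3.28%), 88 in replicate 1 only and 105 in replicate 2 only, and 579 (67.0%, beside 70%) matched exactly 1 region in each. With the upper 50% of each replicate list by score alone, the split share was 1.50% of all 864. That filter removes lower-scoring pieces and so lowers splitting by itself, and no background was computed for it. More than 2 pieces were uncommon, with 14 regions in 3 pieces in replicate 1 and 6 in replicate 2, and none in 4.

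Splitting rose with width and fell with score. The room for pieces of at least 1301 bp also grows with width. At 4 to 5 kb, just below the class, 4.74% ± 0.670 were split (SD, n = 2). Within the class the share was 14.4% ± 1.60 at 5 to 6 kb, 19.9% ± 1.65 at 6 to 7 kb, 26.5% ± 3.24 at 7 to 8 kb, 24.1% ± 2.00 at 8 to 9 kb and 38.9% ± 4.36 at 9 to 10 kb. It went on to 44.3% ± 3.68 at 10 to 12 kb. By score it was 34.6% ± 1.10 in class 2, 21.0% ± 3.07 in class 3 and 12.4% ± 0.516 in class 4. These steps exceeded the spread between replicates except between the bins of 7 to 8 and 8 to 9 kb and between those of 9 to 10 and 10 to 12 kb. Regions split in neither replicate had a median score of 1.39, and those split in both one of 1.01. Merging replicate regions that lie within 500 bp of each other lowered the share to 7.81%, so most of the splits were narrow interruptions.

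**Figure D3:**
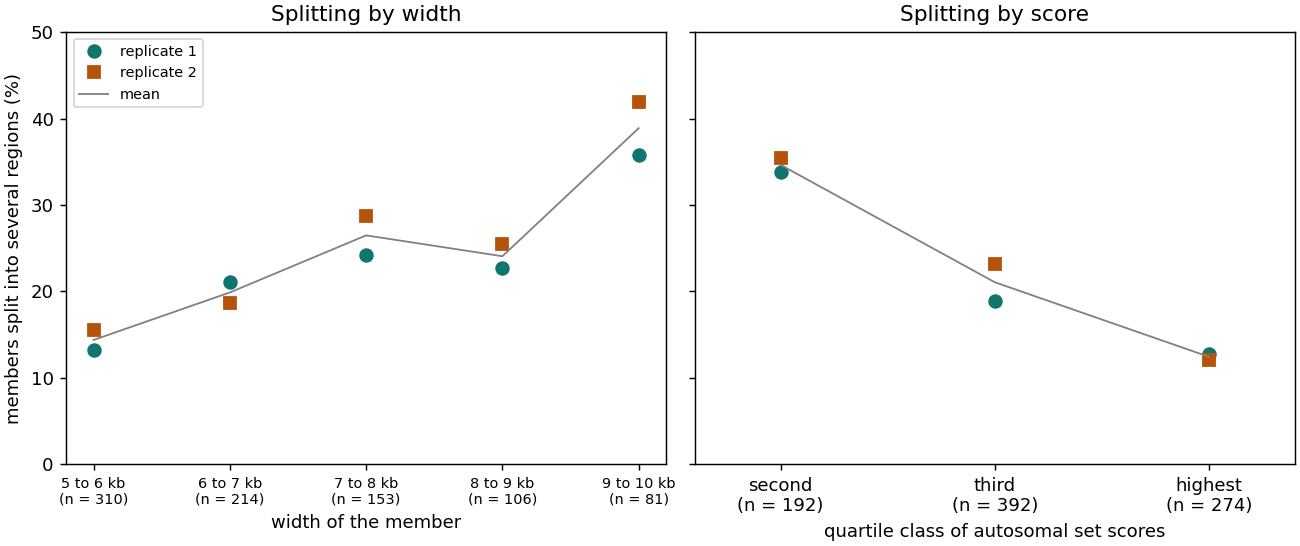
Share of 5 to 10 kb regions that overlap more than 1 region of a replicate list (%), by width in 1 kb bins on the left and by quartile class of the autosomal set scores on the right, with points for each replicate and a line at their mean. Numbers of regions are given under each bin; score class 1, with 6 regions, is left out. The mean rises from 14.4% at 5 to 6 kb to 38.9% at 9 to 10 kb and falls from 34.6% in class 2 to 12.4% in class 4.

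The gaps inside split regions were short and mostly lay in the central part of the region. There were 190 in replicate 1 and 199 in replicate 2, with median lengths of 306 and 348 bp. Of these, 124 (65.3%) and 129 (64.8%) were at most 500 bp long, and 30 and 27 exceeded 1000 bp. Their middle lay at a median of 49.9% and 49.0% of the region's width, and 90.5% of the gaps in each replicate lay in the central part between 25% and 75%. No region of a replicate list is narrower than 1301 bp, so a gap close to an end needs a piece that reaches past the set region. Such gaps occurred, as at 1.02% of the width at 2L 9935931 to 9942198 and at 98.0% at 2L 21379101 to 21388021. For pieces inside the set region, the central position is largely fixed by the least width.

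A minority of the gaps were shared by the replicates. Over all split intermediate regions, 60 of the 190 gaps of replicate 1 and 60 of the 199 of replicate 2 overlapped a gap of the other list, and 94 and 106 lay in regions that the other replicate did not split. Exactly 2 pieces in both replicates were found in 78 regions, and in 52 of these (66.7%) the gaps of the replicates overlapped. Neither an expected overlap nor values for the other classes were computed, and the least width limits where gaps can lie. These counts are therefore a description only. The middles of the gaps were a median of 128 bp apart over the 78. In 70 of the 78 (89.7%) the piece on the same side, left or right, had the higher score in both replicates. The piece on the same side was the wider one in 67. Where the gaps did not overlap, the pieces on a side are not the same stretch. Among the 52 with overlapping gaps the counts were 48 (92.3%) by score and 47 by width. The scores of both pieces differed by a median of 0.46 in replicate 1 and 0.55 in replicate 2. The higher-scoring piece was also the wider one in 58 cases in replicate 1 and 59 in replicate 2. In these regions the order of the pieces by score was mostly alike in both libraries.

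**Figure D4:**
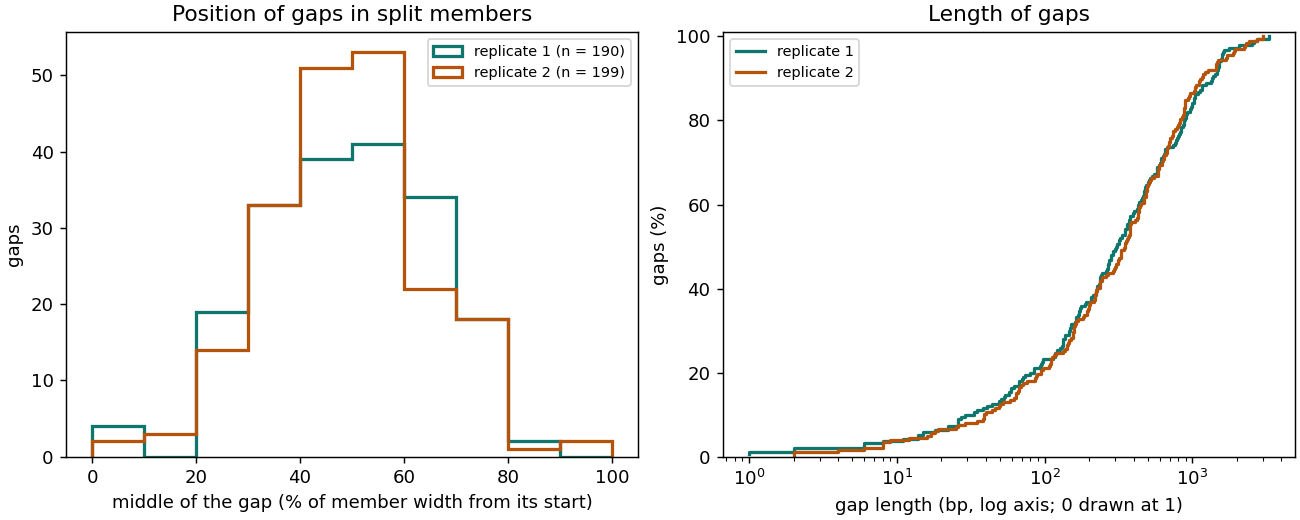
Left, number of gaps between replicate regions inside split 5 to 10 kb regions by the position of the gap's middle, as % of the region's width. Right, cumulative share of gaps (%) by length in bp on a log axis. In both replicates most gaps lie between 25% and 75% of the width, and the median lengths are 306 and 348 bp.

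The most divided regions showed 3 pieces in both replicates. The region at 3L 15575783 to 15583454 (7672 bp, score 1.71) was covered to 96.2% by the pieces of replicate 1 and to 96.4% by those of replicate 2. Its best pieces ranked 458 and 299, and its outer starts were 59 bp and its ends 157 bp apart. The regions at 3R 17815142 to 17824767 (9626 bp, score 0.54) and 3L 8565508 to 8572810 (7303 bp, score 0.46) were weak by comparison. Replicate 1 covered 69.9% and 79.3% of them, and replicate 2 covered 83.9% and 78.1%.

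Intermediate regions lay closer to other enriched regions than narrower ones did. From edge to edge, the nearest other region of the set list was a median of 1330 bp away, with quartiles of 389 and 3310 bp. For narrower regions the median was 2054.5 bp and for broader ones 1179 bp. A neighbour within 1 kb was present for 375 of 864 (43.4%, beside 36.4% of all autosomal set regions), and 53 (6.13%, beside 14.6%) had none within 10 kb. The narrower class had 34.3% and 16.9%. By bins, regions of 2 to 3 kb were the most separate, with a median of 2865 bp, whereas those of 1 to 2 kb had one of 1494 bp and those of 4 to 5 kb one of 1488 bp. The 5 to 6 kb regions, at 1293.5 bp, were again close to the bin below. In the replicate lists, by their own widths, the 5 to 10 kb class had a median distance of 1746.5 ± 6.36 bp (SD, n = 2) and the narrower class one of 2547 ± 68.6 bp. The order of the 2 classes was the same after set regions within 500 bp had been merged, at 2224 and 2814 bp. To the nearest region of a replicate list outside it, an intermediate region had 2128.5 bp (replicate 1) and 2223.5 bp (replicate 2), and a narrower one 2951 and 2906 bp.

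Neighbours of intermediate regions were mostly narrower regions, as they were for each class. Of 1728 neighbours on either side, 1311 (75.9%) were narrower, 326 (18.9%) intermediate and 91 (5.27%) broader. In the list, 78.8% of autosomal regions are narrower, 16.0% intermediate and 5.21% broader. Narrower regions had 79.3% narrower and 15.4% intermediate neighbours, and broader ones 78.8% and 16.2%. Most intermediate regions stood alone in this sense, as 567 runs of a single one, and no background was computed for runs. A further 107 runs held 2 in succession, 25 held 3 and 2 held 4. The runs of 4 spanned 54.0 kb at 3R 4126180 to 4180227 and 48.5 kb at 3R 8805769 to 8854227. The closest pair, on 2L, was separated by 5 bp, with 5134 bp at 10966658 to 10971791 (score 1.24) and 6252 bp at 10971797 to 10978048 (1.57), and 1 region of replicate 1 bridged it. The next 2 pairs were 43 bp apart at 3L 13988699 to 14002150 (scores 0.43 and 1.53) and 48 bp apart at 3R 11087849 to 11105235 (1.01 and 1.26). The most isolated intermediate region was 7604 bp at 2R 15997924 to 16005527 (score 1.38), 104871 bp from its nearest neighbour. It was followed by 2L 14489535 to 14496230 (score 2.28), with 78765 bp, and by the high-scoring region at 2L 14614431 already described.

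On the arms the class was most dense on 4. There 19 regions gave 14.1 per Mb, against 7.69 on 2L (177 regions), 8.11 on 3L (199), 8.92 on 3R (249) and 10.4 on 2R (220). As a share of each arm's regions it varied little, from 15.1% on 2L to 17.2% on 2R, with 15.7% on 4, 15.7% on 3L and 16.0% on 3R. The density thus followed the density of regions as a whole. Median scores were 1.36 on 3L, 1.34 on 2R, 1.28 on 2L, 1.20 on 3R and 0.84 on 4, with the quartiles of the 4 long arms overlapping one another. On 4, replicate 1 split 6 of the 19 and replicate 2 split 13, which is the largest disagreement between replicates on any arm. The shares on the long arms lay between 15.8% and 24.1%. The starts on 4 were a median of 367 bp apart and the ends 149 bp.

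Along the long arms the intermediate regions thinned at the centromeric end together with the rest. The 2 Mb at that end of the assembled arms 2L, 2R, 3L and 3R held 50 of 845 (5.92%, beside 5.75% of all set regions on these arms), or 6.25 per Mb against 8.97 elsewhere, a ratio of 0.697. The ratio was 0.678 for narrower and 0.567 for broader regions. By arm it was 0.231 on 3L (4 regions), 0.563 on 2L (9), 0.601 on 2R (13) and 1.38 on 3R (24), so 3R went the other way. In the replicate lists, by their own widths, the ratio for the 5 to 10 kb class was 0.689 and 0.792. By deciles of arm length, counted from the centromeric end, the density in decile 1 was 0.710 of the class mean, and deciles 2 to 10 lay between 0.852 and 1.17. Single arms varied more, with 35 regions in decile 2 of 3L and 38 in decile 4 of 3R, against 8 in decile 4 of 2L.

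**Figure D5:**
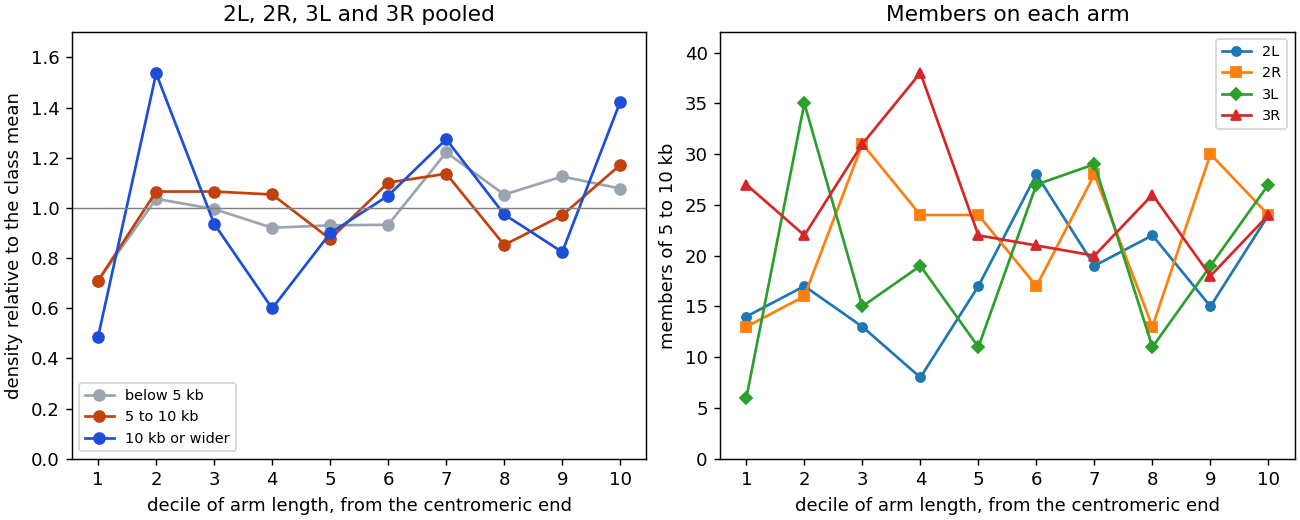
Left, density of regions in each decile of arm length (2L, 2R, 3L and 3R pooled), counted from the centromeric end and divided by the mean of the width class. Right, number of 5 to 10 kb regions in each decile of each arm. Decile 1 has 0.710 of the class mean for 5 to 10 kb regions, and 3R has the most regions there, with 27.

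In bins of 1 Mb the counts of intermediate regions ranged from 2 to 20. The median over 95 full bins was 9, with quartiles of 6 and 12. Across bins Spearman's rho with the count of narrower regions was 0.44 and with that of broader regions 0.27; bins of an arm share libraries and neighbouring sequence. The bins below were picked with their values in view. The fullest was 21 to 22 Mb on 3L, with 20 intermediate, 53 narrower and 2 broader regions. The bin from 5 to 6 Mb on 2R came next, holding 18, 52 and 7. The emptiest were 22 to 23 Mb on 2L and 23 to 24 Mb on 3L, with 2 each. In contrast, the bin at 5 to 6 Mb on 3L had 3 intermediate regions among 57 in all, the lowest share of any bin at 5.26%, and the bin at 10 to 11 Mb on 2L had 16 of 57, the highest at 28.1%.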

How the data were processed

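The authors aligned reads with Bowtie 0.12.7, per the submitters' processing notes, and deposited region lists on FlyBase release 5, per the file headers. How regions were called and replicates combined is not given in the sources used. Each deposited score is taken as log2: after subtraction of the most common score, powers of 2 gave whole-number ratios (tolerance 1e-10, denominators to 300) for 22.9% of the set list, against 0.235% with base e and 0.265% with base 10.

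From the lists, widths, overlaps (at least 1 bp), edge differences, gaps and densities by midpoint were computed in Python 3.11.15 (scipy 1.17.1, numpy 2.4.6, pandas 2.3.3, figures in matplotlib 3.10.9). Intervals are exact binomial (95%), for shares and for medians by order statistics, and cover the counting of regions only. Functions were tested on simulated data with known pieces and edges. The simulated regions lay too far apart for a piece to reach a neighbour, so bridging was not tested. The regions and measures were chosen with earlier results of these data known. Named regions are the 10 highest-scoring in both replicates, the 3 most divided, the 3 most and least alike at the edges (the latter among scores at or above the class median), those lacking a partner, those nearest the width bounds, the 3 closest pairs and the 3 most isolated. Runs and bins were named after their values were seen. Alternatives were stricter overlap, the upper 50% of replicate regions by score, merging within 500 bp, other edges, bounds and stretches, and leaving out 4 or a replicate. Input libraries, X and heterochromatic scaffolds were not used.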

Additional observations from a re-analysis of the deposited data

How the results depend on the processing

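Of the alternatives, 2 (the highest score class, for splitting and for edges) were added after the data were seen. No paired analysis was possible because inputs carry no values here and no test between groups was made. Restricting replicate lists to the upper 50% by score, which can only lower both, gave 64.6% overlapping both and 1.50% split, without a background. Leaving out each replicate gave 99.5% to 99.9% for overlap and 20.4% to 22.3% for splitting; edge differences need both. The split share was 7.81% after merging within 500 bp, 22.9% at 6 to 9 kb and 12.4% in the highest score class, where the edges differed by 73 and 88 bp. With the edges of the region covering most of each member the medians were 135 bp (start) and 169 bp (end). The nearest neighbour lay 2128.5 bp away in replicate 1, 2223.5 bp in replicate 2 and 2224 bp after merging within 500 bp. The share keeping its class was 74.3% after merging and 65.0% for widths of 6 to 9 kb. The median score and the ratio at the centromeric end moved by less than their intervals under each alternative tried, the latter between 0.533 (1 Mb) and 0.793 (6 to 9 kb). Unknown depth limits any statement on absent partners.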

Other observations

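Replicate regions that overlapped an intermediate region together with another set region were few. They touched 19 of 864 in replicate 1 (2.20%) and 15 in replicate 2 (1.74%), 33 in either and 1 in both. The set list was made from the same libraries, and bridges were counted only between regions that it kept apart. The count in both therefore cannot show how often a bridge recurs. For narrower regions the shares were 1.13% and 1.48%, and for broader ones 0.356% and 1.42%. No share over all regions was computed. The lowest-scoring intermediate region, at 3R 9884490 to 9890864 (score 0.34), overlapped 3 regions of replicate 1, the best of rank 1769, and 1 region of replicate 2, of rank 5197, with starts 4485 bp and ends 2903 bp apart. No region called depleted, of 41 in the set list and 3 in replicate 1, overlapped an intermediate region. Enriched and depleted calls of 1 list are not expected to overlap, so for the set list this says little about the class. Neither the other classes nor the arms of the depleted regions were counted.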
